A study of Mus musculus with 25 samples.

Results

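In all, 37 genes of the hypoxia response and of glycolysis were followed through 25 bulk RNA-seq libraries of mouse E14 embryonic stem (ES) cells. The set was put together from known members of both pathways, and it was selected on these libraries, because Ddit4 and Bnip3 were over 2-fold lower in every edited clone than in any unedited library. All 37 members were found among the 48440 gene rows of the count table. The level of the members in clones against unedited cells is therefore the pattern the set was chosen for, and it is given as a description with no test. The tests are of contrasts that lie within the unedited cells or within the clones.

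The unedited E14 cells, ES cells kept without feeders in serum and LIF, had received 0, 2.5, 5, 7.5 or 10 µM CHIR99021 for 48 h, with 2 libraries at each dose. CHIR99021 inhibits GSK3, the kinase that marks β-catenin for destruction. The other 15 libraries came from 15 clones without CHIR99021, each clone being 1 library and heterozygous for 1 of 11 substitutions of β-catenin at serine 37, threonine 41 or serine 45, the residues through which it is marked. To make the clones, a selection cassette in Ctnnb1 was replaced by homology-directed repair with the mutated sequence, and colonies were picked and genotyped. The unedited cells did not pass through these steps, so that editing, selection, subcloning and the culture or collection of the clones cannot be told apart from the mutation when clones are set against unedited cells. The study orders the mutations by a mutational effect score (MES), measured on a Wnt reporter in separate cells. Here T41S (clone H8), S45C (D3) and T41N (D3) are called the low MES class, S45P (G5) and S45F (C1 and D9) the medium class, and S37Y (A5), S37C (G12), S37A (A10), T41A (C1 and E6), T41I (B9 and A6) and S37F (H2 and G1) the high class, which gives 3, 3 and 9 clones. The study also sorted its clones into low, medium and high MES by clustering their RNA-seq profiles. If the cuts between classes follow that clustering, tests between classes are not independent of these counts. Counts per gene do not show a point mutation, so the genotype labels could not be checked. Nothing in the labels says that the 2 libraries of a dose came from separate cultures, and their p-values may measure only technical spread.

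Cells sense oxygen through prolyl hydroxylases (the EGLN proteins), which tag the α subunit of the hypoxia-inducible factor (HIF) for destruction by VHL while oxygen is at hand. When oxygen falls, HIF-α persists, pairs with ARNT and binds a short core sequence near its target genes. Among these targets are the glucose carriers, almost every enzyme of glycolysis and the lactate exporter MCT4 (Slc16a3). PDK1, which limits the use of pyruvate in the mitochondrion, is another, as are the mitophagy receptors BNIP3 and NIX (Bnip3l). DDIT4, also called REDD1, restrains the growth kinase complex mTORC1. Mouse ES cells in serum and LIF draw on both glycolysis and respiration.

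Promoter sequences in the RefSeq table (GRCm38.p6) were matched by symbol for 33 of the 37 members. Bnip3l, Slc2a3, Ndrg1 and Bhlhe40 had no entry. The core to which HIF binds was searched as ACGTG and GCGTG on both strands, which on the printed strand also reads CACGT and CACGC, in the 250 bases before each start. Matches that overlapped, as in a CACGTG read on both strands, were counted once, and a gene with several starts took its highest number. At least 1 match stood in the promoters of 30 of the 33 members (90.9%). The same was true of 41.5% of the 27025 genes in the table and of 66.7% of the 5583 genes there that averaged 20 or more CPM (counts scaled to a common library total) in these libraries. At least 3 matches stood in 8 of 33 members (24.2%), against 12.5% of those 5583 genes. Tpi1, Gpi1 and Mif had none in this window. The members were put together from known genes of the hypoxia response and glycolysis, so a high share is partly built into the list. The other genes were not matched to them for base composition or number of starts. These are matches of letters and not measured binding. The sequences of 7 members, picked as examples, are shown 5′ to 3′ on the gene's own strand, with the matches in capitals. No member without a match is among these 7. Ddit4 and Bnip3 defined the set (chr10:59951835-59952020 on the minus strand and chr7:138909520-138909756 on the minus strand). The others are Egln3 (chr12:54203875-54204124 on the minus strand), Slc16a3 (chr11:120948817-120949052 on the plus strand), Ankrd37 (chr8:45999868-46000100 on the minus strand), Fam162a (chr16:36071595-36071684 on the minus strand) and Pfkp (chr13:6648778-6649021 on the minus strand). Bases that lie in an annotated exon were left out, and matches among those bases are not shown.
Ddit4: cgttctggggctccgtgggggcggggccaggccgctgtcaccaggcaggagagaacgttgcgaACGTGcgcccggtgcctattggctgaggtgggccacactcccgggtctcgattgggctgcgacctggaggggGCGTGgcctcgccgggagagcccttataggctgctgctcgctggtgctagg
Bnip3: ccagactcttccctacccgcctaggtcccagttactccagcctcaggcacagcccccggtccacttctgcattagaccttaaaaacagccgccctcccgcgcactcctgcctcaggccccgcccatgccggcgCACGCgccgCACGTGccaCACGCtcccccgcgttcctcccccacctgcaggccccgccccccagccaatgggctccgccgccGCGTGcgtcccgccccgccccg
Egln3: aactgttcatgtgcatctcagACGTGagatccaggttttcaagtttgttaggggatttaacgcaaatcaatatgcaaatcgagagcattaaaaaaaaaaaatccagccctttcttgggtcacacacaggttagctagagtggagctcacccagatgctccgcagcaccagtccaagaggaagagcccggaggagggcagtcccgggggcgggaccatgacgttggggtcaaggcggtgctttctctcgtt
Slc16a3: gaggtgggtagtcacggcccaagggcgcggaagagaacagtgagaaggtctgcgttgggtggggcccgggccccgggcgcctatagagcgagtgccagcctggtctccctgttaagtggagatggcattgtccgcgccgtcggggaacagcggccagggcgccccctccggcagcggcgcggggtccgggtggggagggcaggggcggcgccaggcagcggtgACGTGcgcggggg
Ankrd37: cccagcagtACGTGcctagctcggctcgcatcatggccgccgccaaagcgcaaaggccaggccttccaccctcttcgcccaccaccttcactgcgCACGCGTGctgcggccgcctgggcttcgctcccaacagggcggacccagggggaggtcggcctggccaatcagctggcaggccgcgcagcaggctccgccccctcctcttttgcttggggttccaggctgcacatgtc
Fam162a: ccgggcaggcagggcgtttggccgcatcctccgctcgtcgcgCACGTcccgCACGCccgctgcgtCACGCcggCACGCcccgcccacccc
Pfkp: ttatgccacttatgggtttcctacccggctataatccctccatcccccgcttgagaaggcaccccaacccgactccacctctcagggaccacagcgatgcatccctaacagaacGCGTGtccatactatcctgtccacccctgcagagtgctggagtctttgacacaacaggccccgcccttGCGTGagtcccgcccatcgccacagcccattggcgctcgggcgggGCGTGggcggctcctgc
The printed stretch of Bnip3 held 4 separate matches, that of Ddit4 held 2, and that of Egln3 a single one, 229 bases before the start. Fam162a, which encodes a mitochondrial protein induced by hypoxia, had 4 matches in its 90 printed bases.

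Depth ran from 306157 to 2083398 counts per library in unedited cells and from 495616 to 2025273 in clones. A count of 0 allowed up to 1.44 to 9.80 CPM, by library, for counting error only. The share of counts on mitochondrial genes was 0.485% to 1.46% in unedited libraries and 1.53% to 2.52% in clones, 2 ranges that did not touch. In unedited cells the 4 libraries under 0.8% were 0 µM replicate 2 and replicate 1 of 2.5, 5 and 10 µM. The summed level of 10 pluripotency markers lay between 2391 and 7102 CPM over all 25 libraries, lowest in T41S clone H8. That clone also had the highest sum of 16 markers of differentiated cells, 3252 CPM, against 353 to 1089 CPM in unedited cells. The 2 libraries of each label that had 2 differed by more than sampling noise (chi-square per degree of freedom of 1.36 to 3.99).

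In the clones 35 of 37 members had a lower mean level than in unedited cells, and Ddit4 was among the lowest. In unedited cells Ddit4 lay between 423 and 544 CPM with a median of 492, and in clones between 35.7 CPM (T41A clone E6) and 172 CPM (S37F clone H2) with a median of 63.3. The mean was 6.48-fold lower in clones (75.6 ± 41.2 CPM, SD, n = 15, against 490 ± 40.8 CPM, n = 10). Bnip3 lay between 591 and 728 CPM in unedited cells, with a median of 661, and between 87.0 CPM (T41S clone H8) and 281 CPM (S37F clone H2) in clones, with a median of 134, a mean 4.11-fold lower. For neither gene did any clone come near the unedited range: the highest clone reached 0.406 of the lowest unedited library for Ddit4 and 0.476 for Bnip3. The next members outside this 2-fold limit were Bhlhe40 at 0.514, Adm at 0.55, on no more than 3 counts in a clone, and Egln1 at 0.595. Among the 7091 genes averaging 20 CPM or more, 0.0705% met the same 2-fold criterion, 5 genes in all. The other 3 were Espn, which bundles actin, Ifi30, a lysosomal thiol reductase, and Ndufa4l2, a mitochondrial protein related to a respiratory chain subunit, 6.01-, 3.94- and 6.98-fold lower in clones by their means. In such bulk libraries fewer cells that express a gene and less RNA per cell cannot be told apart.

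Every clone was below every unedited library for 19 of 37 members, and no member had every clone above. Over genes averaging 20 CPM or more these counts were 18 of 35 members below, where 3.61% of the 7091 genes were, and 0 above, where 6.23% were. The median log2 ratio of means, clones over unedited, was -1.03 over those 35 members and 0.13 over all 7091 genes. The summed level of the 37 members, in which the genes with the most counts weigh most, was 28242 to 29457 CPM in unedited cells and 12931 (T41I clone B9) to 20865 CPM (S37F clone H2) in clones. The mitochondrial share given above separates clones from unedited libraries in the same way, and its part in these differences was not tested. Against the 2 untreated libraries alone, every clone was below for 27 of 37 members, or 25 of the 35 averaging 20 CPM or more, where 10% of the 7091 genes were. As the set was chosen by this contrast, these shares describe it and support nothing.

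**Figure D1:**
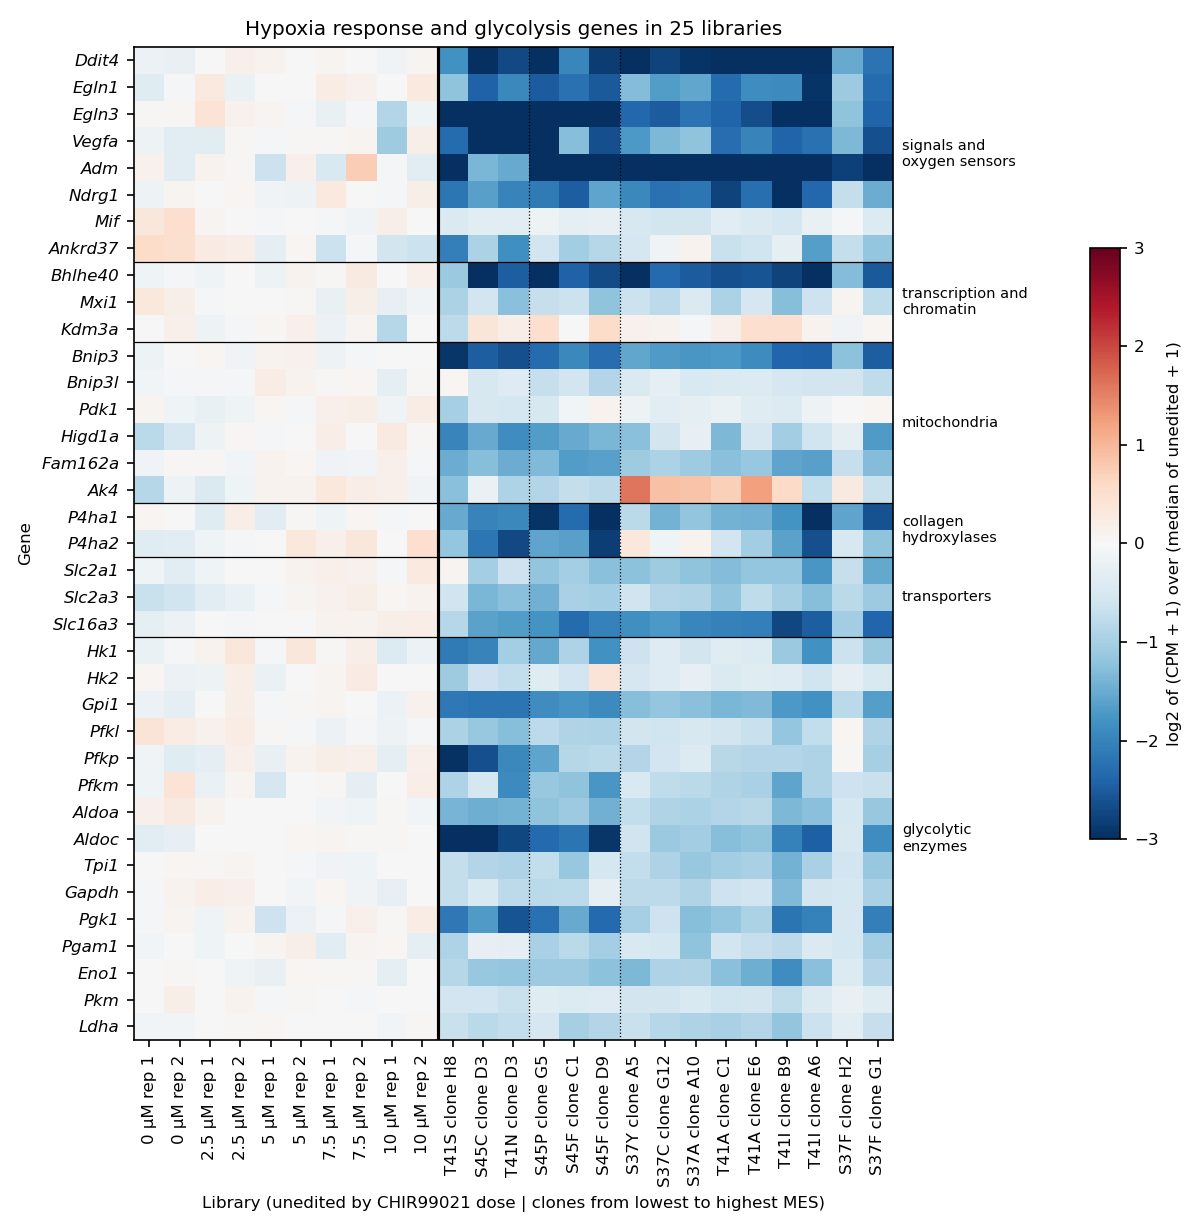
The 37 members (rows, by role) in the 25 libraries (columns; the solid line parts unedited cells by CHIR99021 dose from clones, and dotted lines part the low, medium and high MES classes). Colour gives log2 of (CPM + 1) over the median of the unedited libraries + 1, with colours full at -3 and 3. Most rows are blue in the clones, Kdm3a and Ak4 being the exceptions by mean, and the column of S37F clone H2 is paler than its neighbours.

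By role, the members that signal or sense oxygen had the lowest median ratio of means, 0.244. For 6 of these 8 every clone was below every unedited library. Egln3, the hydroxylase PHD3, lay at 49.0 to 121 CPM (median 90.4) in unedited cells and at 4.04 to 38.4 CPM (median 10.1) in clones. Egln1, the main oxygen sensor PHD2, lay at 97.8 to 154 CPM (median 125) against 15.5 to 58.2 CPM (median 32.3). Both hydroxylases were thus lower in the clones, as were Vegfa, the ligand that calls in blood vessels (29.4 to 70.8 against 3.99 to 26.8 CPM), and Ndrg1, a stress-response gene (60.5 to 83.4 against 4.82 to 40.6 CPM). Adm, which encodes the vasodilator peptide adrenomedullin, had 4 to 40 counts in each unedited library and 0 to 3 counts in each clone, no more than a count of 0 allows, so no fold is given. Mif, a cytokine, and Ankrd37, an ankyrin-repeat protein, overlapped between the groups, with 14 and 9 of 15 clones below every unedited library.

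Of the 15 glycolytic enzymes, 8 had every clone below every unedited library: Gpi1, Aldoa, Aldoc, Tpi1, Gapdh, Eno1, Pkm and Ldha. Gpi1, which turns glucose phosphate into fructose phosphate, lay at 1978 to 2672 CPM (median 2377) in unedited cells and at 519 to 1363 CPM (median 718) in clones. Aldoc, an aldolase, lay at 131 to 176 CPM against 9.05 to 119 CPM, and Aldoa, the main aldolase, at 4397 to 5749 against 1718 to 3319.9 CPM. The last steps of the pathway lay closer, with Pkm at 3366 to 3929 against 2063 to 2969 CPM and Ldha at 4706 to 5209.8 against 2214 to 3954 CPM. The summed level of the 15 enzymes was 18608 to 20304 CPM in unedited cells and 8431 to 14520 CPM in clones. The hexokinases Hk1 and Hk2, the phosphofructokinases Pfkl, Pfkp and Pfkm, Pgk1 and Pgam1 overlapped, each with 12 to 14 clones below every unedited library. Pgk1 was measured on few counts, 3 to 79 in a library (6.05 to 48.2 CPM). Gapdh has near-identical matches in 93 other genes of the annotation, and its level here was low (30.3 to 89.1 CPM over all libraries). It is uncertain where the counting split reads between them. Such matches exist also for Bnip3 and Ldha (5 each), Eno1 and Mif (4 each), Aldoa (2), and Tpi1, Gpi1, Pkm, Pfkp, Higd1a and Ak4 (1 each). Of these, the match of Higd1a had more counts than Higd1a itself (means of 57.1 and 21.3 CPM). The match of Pfkp is Pitrm1, a different gene and no copy of Pfkp (135 against 227 CPM).

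Among the transporters Slc16a3, the lactate exporter, was the only 1 of 3 with no overlap, at 302 to 418 CPM in unedited cells and 53.7 to 201 CPM in clones. The glucose carriers Slc2a1 and Slc2a3 had 14 and 13 of 15 clones below every unedited library. Of 6 members that act at the mitochondrion, Bnip3 and Fam162a (569 to 683 against 193 to 381 CPM) did not overlap. Bnip3l, Pdk1, Higd1a and Ak4 did. P4ha1, a catalytic subunit of the enzyme that hydroxylates collagen, lay at 92.0 to 136 against 10.1 to 67.2 CPM, while its relative P4ha2 overlapped. Of the 3 that act on transcription, Bhlhe40, a circadian and hypoxia-induced repressor, lay at 225 to 303 CPM (median 251) in unedited cells and at 18.6 to 116 CPM (median 40.9) in clones, Mxi1, a MYC antagonist, had 14 clones below, and Kdm3a, a histone demethylase, had none. Only Kdm3a and Ak4, an adenylate kinase of the mitochondrion, had a higher mean in clones, 1.18 and 1.25 times the unedited mean.

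**Figure D2:**
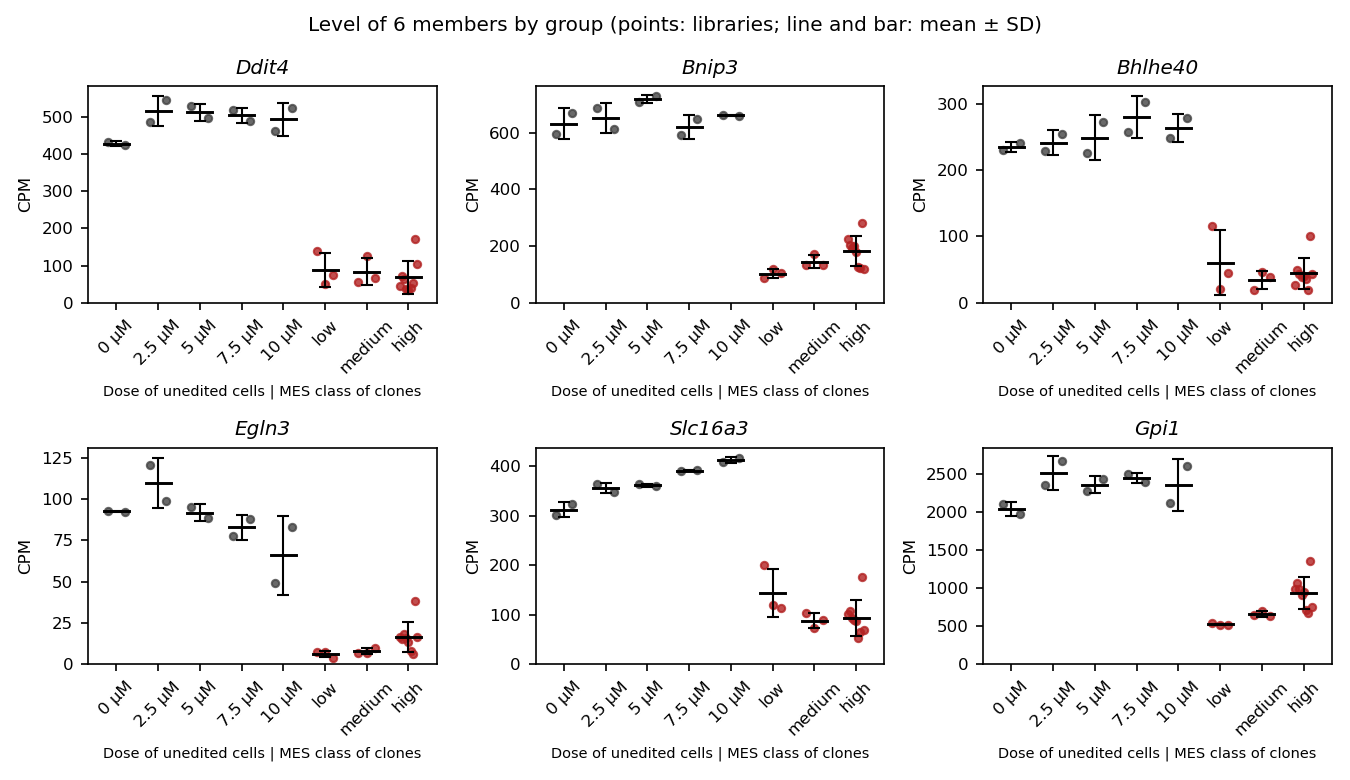
CPM (vertical axes, from 0) of Ddit4, Bnip3, Bhlhe40, Egln3, Slc16a3 and Gpi1 in unedited cells by CHIR99021 dose (grey, 2 libraries each) and in clones by MES class (red, 3, 3 and 9 clones). Points are libraries, and lines with bars are the mean ± SD. In all 6 panels every red point lies under every grey one, and in the high class S37F clone H2 is the top point.

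The other genes of the pathway are given here in lists of known genes, as a description. Over all 7091 genes averaging 20 CPM or more, every clone was below every unedited library for 3.61% and above for 6.23%. Of 21 further HIF targets averaging 20 CPM or more, 6 had every clone below every unedited library (Ero1l, Gys1, Kdm4b, Loxl2, Pgm1 and Ppfia4) and 0 above, with 16 of 21 lower by their means and a median log2 ratio of -0.41. Of 10 genes of the HIF machinery 0 were below and 1, Cul2, a scaffold of the VHL ligase, was above. Hif1a, the factor itself, lay at 53.2 to 88.2 CPM in unedited cells and 82.6 to 160 CPM in clones, while Vhl lay at 17.5 to 34.5 against 10.9 to 18.1 CPM and Arnt at 36.2 to 86.4 against 22.2 to 60.9 CPM. All 3 overlapped. Of 13 further genes of glycolysis and pyruvate use, Ldhb, the other lactate dehydrogenase subunit, was below and Pdhx, of the pyruvate dehydrogenase complex, above. In the pentose phosphate pathway Tkt was below (1 of 6). Among autophagy genes Gabarapl1 was (1 of 16). None of 14 regulators of mTORC1, of 7 ATF4 targets, of 9 p53 targets, of 9 pluripotency markers or of 4 differentiation markers had ranges apart, and of 4 glucocorticoid targets Sgk1, a kinase, was above.

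Within unedited cells, the dose series asks whether GSK3 inhibition moves the members. Few were called. With edgeR's quasi-likelihood test of the slope on dose, over 10033 genes, 5 of 37 members rose with dose (background 5.89%) and 2 fell (background 6.63%). Ddit4 and Bnip3 were not called, with slopes of 0.017 ± 0.012 and 0.0032 ± 0.012 log2 units per µM (SE, adjusted p = 0.42 and 0.911). Ddit4 read 432 and 423 CPM at 0 µM and 461 and 524 CPM at 10 µM, and Bnip3 594 and 669.8 against 663 and 659 CPM. The members' median slope was 0.0057 and that of all genes tested 0.00084.

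The members that rose were the 3 transporters, P4ha2 and Ak4. Slc2a3, the high-affinity glucose carrier, read 1366 and 1426 CPM at 0 µM, 1717 and 1883 at 2.5 µM, 2078 and 2287 at 5 µM, 2359 and 2430.0 at 7.5 µM, and 2254 and 2338 at 10 µM. Its mean was highest at 7.5 µM, and the slope was 0.075 ± 0.012 log2 units per µM (SE, adjusted p = 7.97e-05 by edgeR). Slc16a3 read 302 and 324 CPM at 0 µM, 364 and 349 at 2.5 µM, 364 and 359.5 at 5 µM, 392 and 392 at 7.5 µM, and 408 and 418 at 10 µM. Its replicates lay close together, and its slope was 0.039 ± 0.011 (adjusted p = 0.0217 by edgeR). Slc2a1, the main glucose carrier of most cells, read 746 and 652 CPM at 0 µM, 752 and 812 at 2.5 µM, 823 and 884 at 5 µM, 901 and 888 at 7.5 µM, and 787 and 993 at 10 µM, with the untreated libraries at the bottom and a slope of 0.038 ± 0.011 (adjusted p = 0.0263 by edgeR). P4ha2 read 45.1 and 46.8 CPM at 0 µM, 53.2 and 55.6 at 2.5 µM, 57.6 and 72.5 at 5 µM, 64.6 and 73.8 at 7.5 µM, and 58.8 and 83.6 at 10 µM, a slope of 0.074 ± 0.018 (adjusted p = 0.00483 by edgeR). The replicates of P4ha2 were further apart at the higher doses. Ak4 read 44.6 and 73.4 CPM at 0 µM, 60.4 and 74.7 at 2.5 µM, 87.2 and 88.3 at 5 µM, 102 and 93.9 at 7.5 µM, and 91.5 and 76.1 at 10 µM, a slope of 0.068 ± 0.02 (adjusted p = 0.0249 by edgeR).

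Ankrd37 and Pfkl fell. Ankrd37 read 35.9 and 34.0 CPM at 0 µM, 28.7 and 28.2 at 2.5 µM, 19.7 and 25.4 at 5 µM, 15.2 and 23.0 at 7.5 µM, and 16.3 and 15.1 at 10 µM, a slope of -0.12 ± 0.025 log2 units per µM (adjusted p = 0.00176 by edgeR). It had only 5 to 66 counts in a library. Pfkl, the liver type of phosphofructokinase, read 901 and 806 CPM at 0 µM, 762 and 808 at 2.5 µM, 712 and 663 at 5 µM, 614 and 665 at 7.5 µM, and 624 and 673 at 10 µM, a slope of -0.043 ± 0.011 (adjusted p = 0.00862 by edgeR). The summed level of the 3 transporters went from 2414 and 2402 CPM without drug to 3449 and 3750 CPM at 10 µM, while that of all 37 members was 28340 and 29457 CPM against 28270 and 29243 CPM.

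DESeq2 called 4 members higher, without Ak4, and 3 lower. The call of Ak4 was also lost without either 7.5 µM library. The calls rested on the untreated libraries. Without both of them no member was called in either direction, and over all genes 63 rose and 58 fell. Without 0 µM replicate 1 the members called were 1 higher and 1 lower, without 0 µM replicate 2 or 7.5 µM replicate 1 they were 3 higher and 2 lower, and without 10 µM replicate 1 they were 7 higher and 4 lower. In the 6 libraries of higher mitochondrial share alone 6 members rose and 2 fell. Over the same doses the summed differentiation markers went from 353 and 403 CPM at 0 µM to 1019 and 898 CPM at 10 µM and the summed pluripotency markers from 5509 and 5489 to 4556 and 4318 CPM, and their part in these slopes was not tested.

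**Figure D3:**
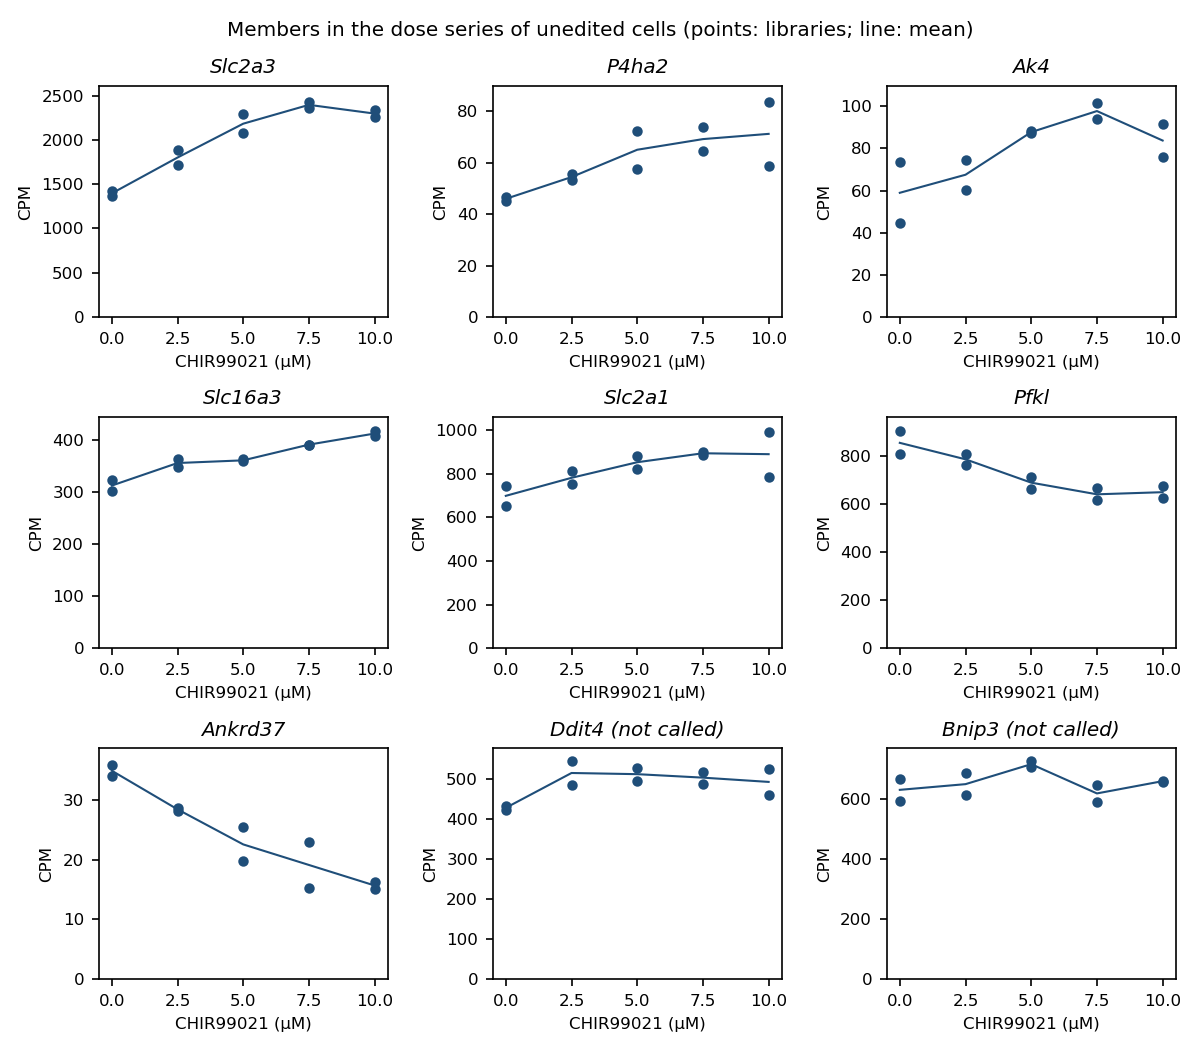
CPM (vertical axes, from 0) against CHIR99021 dose in µM for the 7 members called in the dose series and for Ddit4 and Bnip3, which were not called. Points are the 2 libraries of a dose and the line joins their means. Slc2a3 climbs from 1366 and 1426 CPM to 2254 and 2338 CPM, and Ankrd37 falls from 35.9 and 34.0 CPM to 16.3 and 15.1 CPM.

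Of the genes around the members, Epas1 (the second HIF-α subunit), Hif3a and Arnt fell with dose, 3 of 13 genes of the HIF machinery tested, by 0.17, 0.13 and 0.064 log2 units per µM (adjusted p = 0.00038, 0.0212 and 0.0248 by edgeR). Hif1a (0.0078 ± 0.018) and Vhl (0.011 ± 0.027) were not called. Over all 10033 genes tested, 5.89% rose and 6.63% fell, the background for this list and for those that follow. Of 33 further HIF targets P4hb, the partner subunit of the collagen hydroxylases, rose and Igfbp3 fell. Of 18 further glycolysis and pyruvate genes Pdp2 rose and Pcx fell. Of 6 pentose phosphate genes Taldo1 fell, and of 18 autophagy genes Atg7 rose and Nipsnap1 fell. Of 10 ATF4 targets Asns rose, of 5 glucocorticoid targets Fkbp5 and Per1 fell, and of 10 p53 targets Cdkn1a and Phlda3 rose and Bbc3 fell.

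Among the clones, the MES classes ask whether the members follow the strength of the mutation. The cuts between classes may go back to the study's clustering of these same libraries. With a slope over MES rank, which needs no cuts, edgeR called 7 of 36 members higher and 1 lower. Over the 10145 genes tested there, 732 were called higher and 1139 lower. In 1 fit over the 15 clones, 13 of 36 members tested were higher in the high than in the low class (background 13.1% of 10452 genes) and 2 were lower (background 16.6%). Adm was not tested, its counts being too few. The members' median log2 fold change was 0.26, and that of all genes tested 0.0071. Ddit4 was not called (-0.45 ± 0.40, adjusted p = 0.434 by edgeR), with 139, 49.8 and 74.7 CPM in T41S, S45C and T41N and 35.7 to 172 CPM (median 52.7) in the high class, 2 ranges that overlapped.

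Of the 15 glycolytic enzymes, 7 were higher (Pfkp, Aldoc, Gpi1, Aldoa, Hk1, Pfkl and Hk2). The other 8 were not called, among them Pgk1 (0.99), Pfkm (0.15), Tpi1 (-0.14) and Ldha (-0.030, all log2 fold changes). Pgk1 had only 3 to 15 counts in each clone of the low class. Here and in the sentences below the low class is given in the order T41S, S45C and T41N, and the medium class in the order S45P, S45F clone C1 and S45F clone D9. Pfkp, the platelet type of phosphofructokinase, read 40.7, 51.3 and 84.7 CPM in the low class, 108, 181 and 185 CPM in the medium class and 164 to 337 CPM (median 178) in the high class. No clone of the low class reached the other classes, and the log2 fold change of high over low was 1.91 ± 0.26 (SE, adjusted p = 7.9e-06 by edgeR). Aldoc read 10.7, 9.05 and 24.2 CPM, then 31.9, 35.8 and 21.1 CPM, then 29.5 to 119 CPM (median 71.4) (2.45 ± 0.43, adjusted p = 0.000175 by edgeR). The low class of Aldoc lay under all 9 high clones. Gpi1 read 538, 519 and 519 CPM, then 652, 702 and 632 CPM, then 676 to 1363 CPM (median 954), so that the low class lay under all other clones (0.84 ± 0.16, adjusted p = 0.000342 by edgeR). Aldoa read 1827, 1718 and 1786 CPM, then 2076, 2235 and 1766 CPM, then 1865 to 3319.9 CPM (median 2551) (0.50 ± 0.13, adjusted p = 0.00707 by edgeR). For Aldoa too the low class lay under the high class.

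The other 3 of these enzymes had smaller or less separate differences. Hk1, the housekeeping hexokinase, read 19.2, 21.1 and 42.4 CPM, then 29.3, 45.2 and 23.9 CPM, then 24.0 to 67.7 CPM (median 56.3), with overlap (1.08 ± 0.31, adjusted p = 0.0106 by edgeR). Pfkl read 356, 312 and 284 CPM, then 405, 371 and 362 CPM, then 311 to 723 CPM (median 460.4), also with overlap (0.54 ± 0.17, adjusted p = 0.0227 by edgeR). Hk2, the inducible hexokinase, read 215, 288 and 266 CPM, then 346, 298 and 589 CPM, then 294 to 379.6 CPM (median 342), with the low class under all others (0.42 ± 0.16, adjusted p = 0.0441 by edgeR). Of 21 other settings, Hk2 lost its call in 7, Pfkl in 3 (the slope over MES rank, and without S45C or T41N) and Hk1 in 2 (the slope over MES rank, and without T41S).

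A further 4 act at the mitochondrion, and 2 are among the signals and oxygen sensors. Bnip3 read 87.0, 118 and 105 CPM, then 132, 171 and 134 CPM, then 118 to 281 CPM (median 195), a log2 fold change of 0.87 ± 0.23 (adjusted p = 0.00598 by edgeR). The top clone of the low class, S45C, reached only the bottom of the high class. Pdk1 read 103, 149 and 143 CPM, then 149, 195 and 224 CPM, then 157 to 215 CPM (median 181), with the low class under the high class (0.50 ± 0.15, adjusted p = 0.0132 by edgeR). Higd1a, a mitochondrial protein induced by hypoxia, read 7.34, 10.6 and 8.07 CPM, then 9.32, 10.7 and 11.9 CPM, then 9.21 to 26.8 CPM (median 20.9), on 4 to 13 counts in the low class (1.14 ± 0.36, adjusted p = 0.0181 by edgeR). Ak4 read 33.9, 70.9 and 42.4 CPM, then 43.9, 49.6 and 46.8 CPM, then 48.9 to 252 CPM (median 135) (1.52 ± 0.40, adjusted p = 0.0057 by edgeR). For Ak4 and Higd1a the classes overlapped. Egln3 read 7.34, 7.54 and 4.04 CPM, then 6.66, 6.90 and 10.1 CPM, then 6.21 to 38.4 CPM (median 16.2), on 2 to 13 counts in the low class (1.32 ± 0.48, adjusted p = 0.0407 by edgeR). Ankrd37 read 5.08, 12.1 and 6.05 CPM, then 16.0, 11.3 and 12.8 CPM, then 6.98 to 26.1 CPM (median 15.6), on 3 to 9 counts in the low class (1.19 ± 0.39, adjusted p = 0.0232 by edgeR). Egln3 and Ankrd37 overlapped as well.

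The 2 members that were lower in the high class were both carriers. Slc2a1 read 864, 406 and 535 CPM, then 359, 400.4 and 343 CPM, then 244 to 509 CPM (median 354), a log2 fold change of -0.78 ± 0.18 (adjusted p = 0.0021 by edgeR). Slc16a3 read 201, 119 and 113 CPM, then 104, 72.8 and 89.0 CPM, then 53.7 to 177 CPM (median 88.7), a log2 fold change of -0.67 ± 0.25 (adjusted p = 0.049 by edgeR). T41S clone H8 had the highest level of both among the 15 clones, and the ranges of the classes overlapped. Both genes rose with CHIR99021 in unedited cells, as did Ak4, which was higher in the high class, while Pfkl and Ankrd37 fell with the drug and were higher in the high class. Whether the effects differ between these contrasts was not tested.

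**Figure D4:**
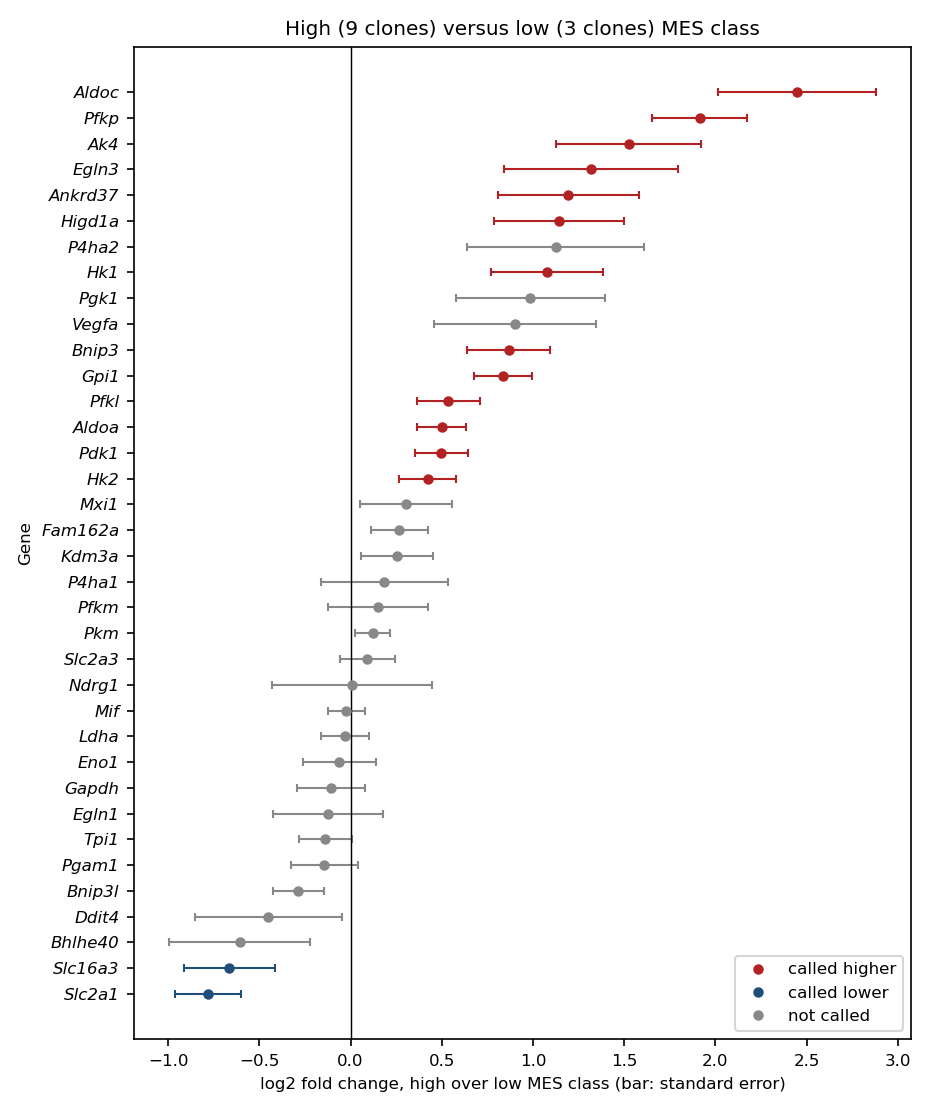
Log2 fold change of the high over the low MES class (horizontal axis) with its standard error (bar) for the 36 members tested, ordered by size. Red marks the 13 members called higher, blue the 2 called lower and grey those not called. Aldoc (2.45) and Pfkp (1.91) stand at the top and Slc2a1 (-0.78) at the bottom.

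This comparison rests on few clones of the low class. Without T41S clone H8, 5 members were higher (Aldoa, Aldoc, Gpi1, Pfkp and Pfkl) and 0 lower, by edgeR, against 13 and 2 with it. Both lower calls were lost without it. The call of Slc16a3 was also lost with 14 other settings. The summed differentiation markers were 3252, 962 and 1358 CPM in T41S, S45C and T41N, against 181 to 496 CPM in the medium class and 203 to 599 CPM in the high class. Foxa2 was at 0 in the medium class, and each of the 16 markers had counts in at least 1 clone of the other classes. The summed pluripotency markers were 2391, 3681 and 3763 CPM, against 4995 to 6056 and 5741 to 7102 CPM. Krt8 and Krt18, keratins of epithelial cells, led the first list. They lay at 505 to 1738 and 339 to 1258 CPM in the low class and at 78.5 to 198 and 67.1 to 156 CPM in the high class. The list as a whole did not move 1 way. Of its 9 genes tested, 1 was higher and 4 lower in the high class (background 13.1% and 16.6%), with a median log2 fold change of 0.13. The part of other cell types in the members' differences was not tested.

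Over all 10452 genes tested, 13.1% were higher and 16.6% lower in the high class, and a list with shares near these shows nothing of its own. Of 12 genes of the HIF machinery tested, 2 were higher and 3 lower. Arnt was higher by 0.71 ± 0.20 and Elob by 0.26 ± 0.085, while Cited2, which competes with HIF for its coactivators, fell by 1.80 on the log2 scale, Eloc by 0.46 and Hif1a by 0.43 (adjusted p = 2.27e-08, 0.00792 and 0.013 by edgeR). Vhl was not called. Of 29 further HIF targets 3 were higher and 8 lower, among the latter Igfbp3 (-3.08), Errfi1 (-1.64), Ets1 (-2.86) and Pfkfb3 (-1.63). Of 20 further glycolysis and pyruvate genes 5 were higher, with Tigar (1.17), Ldhb (1.03), Pdp2 (1.12) and Pgam2 (3.10) among them, and 2 lower, with Eno3 (-2.10) as 1 of these. Of 7 pentose phosphate genes Taldo1 was higher (0.45) and Rpe lower (-1.08). Of 17 mTORC1 regulators 1 was higher and 4 lower, of 19 autophagy genes 5 were higher and 2 lower, of 10 ATF4 targets 4 were higher and 1 lower, of 5 glucocorticoid targets Klf9 was higher, and of 10 p53 targets 5 were lower, with Ccng1 (-1.18) and Mdm2 (-1.11) first.

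Between the medium and the low class, 2 members were higher (background 3.66%) and 1 lower (background 7.29%). Pfkp was higher by 1.52 ± 0.30 and Hk2 by 0.67 ± 0.19 on the log2 scale, and the log2 fold change of Slc2a1 was -0.76 ± 0.23 (adjusted p = 0.00186, 0.0207 and 0.0346 by edgeR). Hk2 lost its call without T41S or S45F clone D9, and Slc2a1 without T41S or any 1 of the medium clones. Between the high and the medium class, 3 members were higher (background 2.13%) and 0 lower (background 2.37%), by edgeR as by DESeq2, with 13 of 36 members (36.1%) and 2096 of 10452 genes (20.1%) at an unadjusted p under 0.05. They were Ak4 (1.54 ± 0.38), Aldoc (1.30 ± 0.35) and Gpi1 (0.53 ± 0.15), with adjusted p of 0.0241, 0.0366 and 0.0491 by edgeR. Without any 1 of the 3 medium clones no member was called, without S37A, S37C, S37Y or either T41A clone there was 1, and without T41I clone A6 there were 6, so that these calls hang on single clones. Pfkp was the member whose call in both contrasts with the low class stood in every setting tried.

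Inside the high class the position of the mutation can be compared, with 5 clones mutated at codon 37 and 4 at codon 41. The codon 41 clones carry only T41A or T41I, and the codon 37 clones S37Y, S37C, S37A or S37F. Clones of the same mutation entered this fit as separate, and counts summed per mutation were not tried for it. No member was called by edgeR, higher at codon 37 (background 0.0209% of 9550 genes) or lower (background 0.0524%), nor by DESeq2, and 13 of 36 members (36.1%) had an unadjusted p under 0.05, as did 858 of all 9550 genes (8.98%). The members' median log2 fold change was 0.31, and that of all genes tested 0.0024. The summed level of the 37 members was 15175 to 20865 CPM (median 15952) at codon 37 and 12931 to 15876 CPM (median 15047) at codon 41. The top value belonged to S37F clone H2, and the part of this 1 clone in the shift was not tested. Without the filter on low counts 6 were called higher. Ddit4 lay at 44.4 to 172 CPM in codon 37 clones and at 35.7 to 52.7 CPM in codon 41 clones, a log2 fold change of 1.15 (adjusted p = 0.314 by edgeR), and its ranges overlapped.

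Clones of the same mutation could differ widely in these genes. In all, 4 mutations had 2 clones. S37F clone H2 was above S37F clone G1 for 33 of the 35 members averaging 20 CPM or more, by a median of 0.74 log2 units, while over all 7091 genes the median was 0.0036 and 3588 genes were higher in H2. Bnip3 read 281 CPM in H2 and 118 CPM in G1, Slc16a3 177 and 68.5 CPM, Gpi1 1363 and 755 CPM, and Egln3 38.4 and 16.4 CPM. Clone H2 had the highest level of the 15 clones for many members, among them Bnip3, Gpi1 and Egln3. For Slc16a3 it did not, as T41S clone H8 read 201 CPM. The summed level of the 37 members in H2 (20865 CPM) was the highest among the 15 clones. The T41A clones C1 and E6 differed least of the 4 pairs, with a median absolute difference of 0.12 for members and 0.16 for all genes. For S45F and T41I the median absolute differences were 0.34 and 0.40 for members and 0.22 and 0.25 for all genes, with 21 and 17 of 35 members higher in the clone named first (C1, B9). As each clone is 1 library, these pairs have no replicate check.

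**Figure D5:**
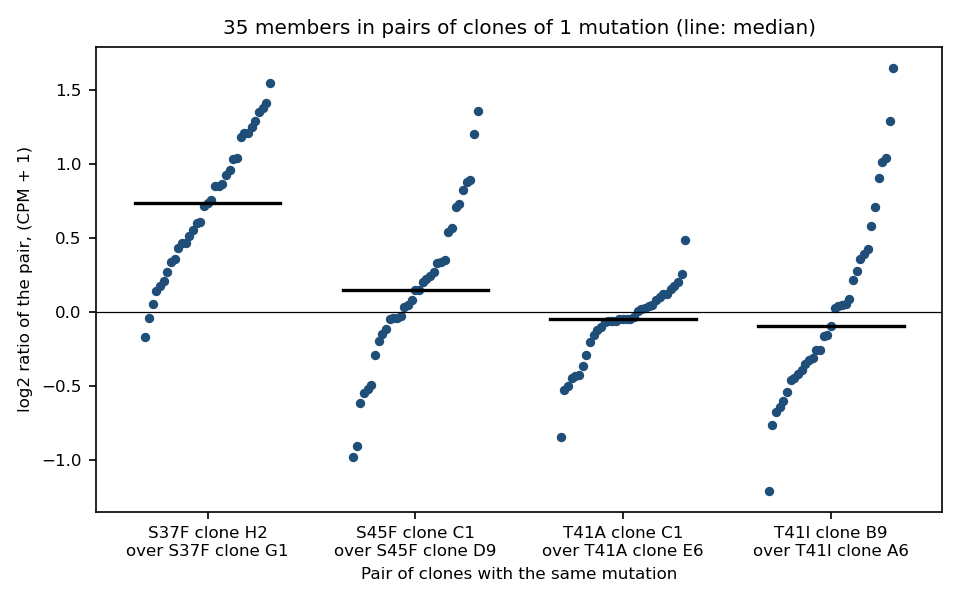
Log2 ratio of (CPM + 1) between the 2 clones of a mutation (vertical axis) for the 35 members averaging 20 CPM or more (points, sorted within each pair), with the median as a line. For S37F, 33 of 35 points lie above 0 with the median at 0.74, and for T41A the points gather around 0.

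The members also tended to vary together from clone to clone. Over the 15 clones the median Pearson r of log2(CPM + 1) over the 595 pairs of 35 members was 0.25, with 75.1% of pairs positive, and over the pairs of all 7091 genes it was 0.0045, with 50.4% positive. Over the 10 unedited libraries the values were 0.11 and 0.0093, with 57.8% and 50.8% positive. These are descriptions over libraries that share depth and composition effects, and the genes of a library are not independent. The 15 clones include S37F clone H2, which was high for many members, and the part of this clone in the correlations was not tested. The median SD over clones was 0.42 log2 units for members and 0.30 for all genes, within mutations it was 0.37 and 0.21, and over unedited libraries 0.16 and 0.24. The median SD of members was thus under that of all genes in unedited cells and over it in clones. The mean of 20 CPM was taken over all 25 libraries, so members low in clones could pass through the unedited cells. Egln3, Vegfa and Pgk1, for example, averaged 12.8, 14.3 and 14.2 CPM in clones. The part of such low counts in the wider spread of members over clones was not tested.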

How the data were processed

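RNA was sequenced by mcSCRB-seq, a bulk 3′ protocol with unique molecular identifiers. According to the study's methods and the submitters' processing notes, reads were trimmed, mapped to mm10 with STAR, deduplicated with UMI-tools and counted with featureCounts 2.0.1. The annotation release and the strand setting are not given in the sources used here. The authors deposited raw counts per gene (48440 rows, 25 libraries), without normalization. Totals of 306157 to 2083398 counts per library limit the precision of low genes, and intervals and floors (3 counts) cover counting error only.

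From these counts, CPM were computed on library totals. GENCODE M21 (GRCm38) gave the symbols and positions, with 48058 gene IDs matched and 40606 of the same version. Near-identical matches were transcripts of other genes, copies or not, matching the last 500 bases of a member over at least 200 bases at 95% identity (BLAST 2.17.0). Tests used edgeR 4.0.16 (quasi-likelihood, TMM, filterByExpr with a minimum count of 10, Benjamini-Hochberg over all genes tested, false discovery rate 0.05, two-sided), for the slope on dose in 10 unedited libraries, for MES classes in 15 clones and for codon in 9 clones. The SE is the log2 fold change over the square root of F. DESeq2 1.42.0, other scalings, no filter, blocks and leaving out each library were alternatives. The fits were tested on simulated data. Clones against unedited libraries were described over genes averaging 20 CPM or more. All 37 members are accounted for, with full values for Ddit4, Bnip3 and every member called, and from the other lists counts and up to 5 called genes of smallest adjusted p. A gene of these lists is not reported here. The members and lists were chosen with earlier results of these data known. The classes follow the study's ranking of mutations.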

Additional observations from a re-analysis of the deposited data

Results flagged for a closer look

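Within the 9 clones of the high MES class, S37F clone H2 stood apart from the others at the top for 7 of 37 members by Dixon's test at 95%, which chance passes in about 1 of 20 groups. It had 172 CPM of Ddit4 (the other 8 clones 35.7 to 104), 723 CPM of Pfkl (311 to 494), 337 CPM of Pfkp (164 to 245), 177 CPM of Slc16a3 (53.7 to 109), 38.4 CPM of Egln3 (6.21 to 18.6), 101 CPM of Bhlhe40 (18.6 to 48.8) and 58.2 CPM of Mxi1 (22.0 to 40.2). The members are not independent of each other, so these 7 are not 7 separate signs. For Ddit4 the next highest was the other S37F clone, G1, with 104 CPM.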

How the results depend on the processing

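The numbers of members called depend on the libraries more than on the scaling. In the dose series, where 5 rose and 2 fell, leaving out a library gave 1 to 7 and 1 to 4, leaving out both 0 µM libraries 0 and 0, and the mitochondrial share as a block 4 lower. With the replicate block 5 rose and 2 fell, so it changed no count. Replicate numbers did not pair the samples over all doses (correlations of the replicate differences of -0.21 to 0.17 over 10 pairs of doses). The differences at 2.5, 5 and 10 µM correlated with each other at 0.14 to 0.17, and with those at 0 µM at -0.21 to -0.17. Replicate 1 had the lower mitochondrial share at 2.5, 5 and 10 µM, and replicate 2 had it at 0 µM. The source of this shared difference was not tested. For high over low, where 13 were higher and 2 lower, leaving out a clone gave 5 to 15 and 0 to 3, DESeq2 and counts summed per mutation 1 lower each, and the slope over MES rank 7 higher and 1 lower. For medium over low (2 and 1) the ranges were 1 to 3 and 0 to 2, with 4 and 3 when no filter on low counts was used and 0 lower with counts summed per mutation. For high over medium (3 and 0) they were 0 to 6 and 0 to 0, with 6 higher without the filter, and for codon 37 against 41 (0 and 0) 0 to 0 in both directions, with 6 higher without the filter. Leaving out a library gave 19 to 23 members with every clone below every unedited library, 2 to 4 of them over 2-fold (4 without S37F clone H2, Egln3 and Ndrg1 being added), and the untreated libraries alone gave 4 over 2-fold. The log2 ratio of means stayed between -2.83 and -2.64 for Ddit4 and between -2.12 and -1.99 for Bnip3. No result changed direction, and the causes of these moves were not tested beyond the loss of libraries or genes that each setting makes. Low counts limit Adm, Ankrd37, Egln3 and Higd1a most.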
